A study of Mus musculus with 6 samples.

Results

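Expression of 10 heat shock and chaperone genes was followed across T cells of a mouse brain tumor: Hspa1a, Hspa1b, Dnajb1, Hspb1, Hsph1, Hsp90aa1, Hspa8, Hspd1, Hspe1 and Hspa5. They were chosen by name, with earlier results of these data known, and all 10 were found among the 32285 genes of both count matrices. The cells were CD3+CD4+ or CD3+CD8+ cells sorted from tumors grown in the brain from CT2A, a mouse glioma line. All hosts were WT C57BL/6J mice aged 6 to 8 weeks, and the labels give no other allele or agent. The early group was taken at day 13 from 16 mice, with 4 mice pooled per replicate, and the late group at day 19 from 4 mice. Each day was captured once, with droplet chemistry that reads the 5′ end of transcripts, so each day is 1 sample, no test between the days is possible and no p-value is given. Animals within a day are mixed, and day, capture, staining and mice cannot be told apart.

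Chaperones bind proteins that are not yet folded or have lost their fold, and hold or refold them. Hspa1a and Hspa1b encode the stress-induced cytosolic Hsp70, Hspa8 its constitutive relative Hsc70, Dnajb1 an Hsp40 partner that loads clients onto Hsp70, and Hsph1 an Hsp110 that exchanges the nucleotide of Hsp70. Hspb1 encodes Hsp27, a small heat shock protein that holds clients without ATP, and Hsp90aa1 the inducible cytosolic Hsp90. Hspd1 and Hspe1 encode the Hsp60 ring and the Hsp10 lid of the mitochondrial folding chamber, and Hspa5 encodes BiP, the Hsp70 of the endoplasmic reticulum. Heat, oxidants and other damage to proteins release the factor HSF1, which binds repeats of nGAAn called heat shock elements, whereas unfolded protein in the endoplasmic reticulum induces Hspa5 through ATF6 and its endoplasmic reticulum stress element. In T cells these genes also respond to activation, growth and the handling of the tissue.

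The start regions of the genes show which of these elements they carry, and a few are printed: those of Hspa1a and Hspa1b, which are nearly the same, that of Hspb1, which has 2 matches to the heat shock element, a stretch that lies before both Hspe1 and Hspd1, and that of Hspa5, which has a match to the other element. Sequences are from RefSeq, build GRCm38.p6, and cover the 250 bases before a transcription start, 5′ to 3′ on the gene's strand. Capitals mark matches to the motifs searched. These were the 2-unit heat shock elements GAANNTTC and TTCNNGAA, the 3-unit element GAANNTTCNNGAA with its reverse TTCNNGAANNTTC, which contains both 2-unit forms, and the endoplasmic reticulum stress element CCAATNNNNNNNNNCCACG, all on both strands. Of the 10 genes, 8 were in the table; Hspa8 and Hsp90aa1 are named only.
Hspa1a, chr17:34972157-34972406, minus strand: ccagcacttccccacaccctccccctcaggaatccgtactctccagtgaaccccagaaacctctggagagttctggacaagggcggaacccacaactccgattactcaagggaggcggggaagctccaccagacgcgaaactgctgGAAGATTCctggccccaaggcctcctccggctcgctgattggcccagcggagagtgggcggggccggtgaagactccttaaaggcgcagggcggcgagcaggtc
Hspa1b, chr17:34959239-34959488, minus strand: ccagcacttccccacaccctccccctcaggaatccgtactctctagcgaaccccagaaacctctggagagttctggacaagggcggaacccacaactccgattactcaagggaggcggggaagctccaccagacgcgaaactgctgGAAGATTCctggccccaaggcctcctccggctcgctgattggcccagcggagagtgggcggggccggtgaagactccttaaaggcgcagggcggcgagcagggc
Hspb1, chr5:135887669-135887918, plus strand: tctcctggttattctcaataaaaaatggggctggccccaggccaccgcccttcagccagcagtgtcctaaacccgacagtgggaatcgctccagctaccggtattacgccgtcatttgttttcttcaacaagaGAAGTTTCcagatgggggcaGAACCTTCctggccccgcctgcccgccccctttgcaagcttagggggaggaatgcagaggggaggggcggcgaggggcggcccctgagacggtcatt
Hspe1, chr1:55088053-55088082, plus strand: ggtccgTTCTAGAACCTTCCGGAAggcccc
Hspa5, chr2:34771840-34772089, plus strand: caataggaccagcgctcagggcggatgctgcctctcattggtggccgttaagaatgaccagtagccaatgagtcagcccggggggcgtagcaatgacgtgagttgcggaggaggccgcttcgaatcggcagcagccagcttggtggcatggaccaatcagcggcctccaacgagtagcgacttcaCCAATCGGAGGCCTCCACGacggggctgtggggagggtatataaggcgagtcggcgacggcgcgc

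The Hspa1a and Hspa1b windows differ at 3 of 250 positions and hold the same 2-unit element, GAAGATTC, from 104 to 97 bases before the start. Hspb1 holds 2 such elements, GAAGTTTC and GAACCTTC, and each of the Hsph1 windows holds 1, TTCTCGAA. The 30 bases printed for Hspe1 hold overlapping 3-unit elements, TTCTAGAACCTTC and GAACCTTCCGGAA, between 89 and 72 bases before its start. Hspd1 lies on the opposite strand, and 1 of its 2 windows, chr1:55087933-55088182, shares 215 bases with the Hspe1 window, so the same elements lie from 144 to 127 bases before that Hspd1 start. Hspa5 holds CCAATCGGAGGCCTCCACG from 65 to 47 bases before its start, and neither Dnajb1 window holds a match. Among 32851 start windows of this length, 12.8% held a 2-unit form, 0.466% the 3-unit element and 0.113% the endoplasmic reticulum element. A match describes letters only. Because the transcripts of Hspa1a and Hspa1b are nearly identical as well, and no source used here says how reads common to both were assigned, the split of counts between these 2 genes is uncertain.

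Barcodes with at least 5000 gene UMIs and at most 10% mitochondrial UMIs were kept, 8878 at day 13 and 4667 at day 19; a UMI marks 1 captured molecule. T cell barcodes had a UMI of Cd3d, Cd3e or Cd3g. CD8 T cells also had Cd8a or Cd8b1 UMIs but no Cd4 UMI, which gave 4245 and 2147 barcodes with medians of 8352 and 10656 UMIs. CD4 T cells, the reverse, numbered 1377 and 975 with medians of 10015 and 11413. Barcodes without a Cd3 UMI numbered 1019 and 343. All 6 T cell markers were present in both classes (summed level in CPM, counts scaled to a fixed total, of 3411 and 3630.2 in CD8 and 2242 and 2768 in CD4 T cells), but so was RNA of myeloid cells, which the sort should remove. All 7 genes of a C1q macrophage and microglia list had UMIs, summing to 2834 and 3215.5 CPM in CD8, 6505 and 7509 in CD4 T cells and 8636 and 8699 in barcodes without Cd3. All 5 monocyte genes summed to 4925 and 2865, 5209.9 and 2949.6, and 11662 and 9284 CPM. The neutrophil genes S100a9 and Retnlg were at 0, and S100a8 reached at most 1.42 CPM. A dendritic list summed to 572 and 359 CPM in CD8 and 818 and 616 in CD4 T cells, and a plasmacytoid list to 1209 and 565, and 1539 and 803. Lists for B or plasma, natural killer, glial or tumor and endothelial cells reached at most 62.5 CPM in T cells. At least 3 UMIs over 8 myeloid genes were found in 50.4% and 66.2% of CD8 and in 71.0% and 79.9% of CD4 T cell barcodes. Every comparison within T cells was therefore repeated in barcodes under 3 myeloid UMIs, 2104 and 726 CD8 and 400 and 196 CD4. No doublet caller was applied, and 62 barcode sequences occur on both days. Counts were not corrected for RNA of empty droplets, and its part in the levels and shares was not tested.

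Levels are CPM of UMIs summed over a group of barcodes, with all gene UMIs as the total, and differences are log2 ratios of CPM with a 95% interval for 2 Poisson counts in brackets. Intervals cover counting error only. A gene counted as different when it was past 1.5-fold (0.585 on the log2 scale), among genes with at least 50 UMIs over both sums together. Each day also has 4 tables of T cell receptor (TCR) contigs, and barcodes found in a table, 4632 (52.2%) and 3215 (68.9%), are a contig set here. Ranges over the 4 sets describe a day's library and are not replicate error, and set numbers do not link the days.

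Hspa8, the constitutive Hsc70, was found in every class at a similar level, and 100% of barcodes of each class, to 3 digits, had a UMI of it after thinning to 5000 UMIs. It stood at 3405 CPM in CD8, 3283 in CD4 T cells and 3999 without Cd3 at day 13, and at 2756, 2670.2 and 3168 at day 19. The stress-induced genes were uneven. Hspa1a stood at 123, 253 and 412 CPM in the same order at day 13 and at 149, 210.3 and 339.8 at day 19. So the order of the groups for Hspa1a was CD8, CD4 and no Cd3 from low to high on both days. In thinned counts, 17.4% (16.3% to 18.6%) of CD8, 31.7% (29.2% to 34.2%) of CD4 and 41.8% (38.8% to 44.9%) of barcodes without Cd3 had an Hspa1a UMI at day 13, with exact binomial intervals, and 19.0%, 26.5% and 31.2% at day 19. Unthinned shares were 23.5%, 39.9% and 48.5% at day 13, and 24.3%, 34.5% and 40.2% at day 19.

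Hspa1b, the near copy, went from 139 CPM in CD8 to 267 in CD4 T cells and 285 without Cd3 at day 13, and stood at 169, 229 and 242 at day 19. Dnajb1 varied less, at 215, 272 and 206 CPM and then 220.2, 207 and 199.7. Hsph1 ran the other way from the Hsp70 genes it serves, being higher in CD8 (108 and 85.8 CPM) and CD4 T cells (96.2 and 73.3) than without Cd3 (64.9 and 45.4). Its order in CD8 and CD4 T cells turned at day 13 under 3 myeloid UMIs, with 112 CPM in CD8 and 119.7 in CD4, and was 105 and 98.8 at day 19. The mitochondrial pair had the order of all barcodes, Hspd1 at 199.5, 152 and 119 CPM at day 13 and 198, 162 and 107 at day 19, and Hspe1 at 350.1, 279 and 236 at day 19 (day 13: 359, 297 and 306, where the last 2 are close). Hsp90aa1 did not separate the T cell classes, at 485 and 484 CPM at day 13 and 452 and 454 at day 19, and was lower without Cd3, at 418 and 305. Hspa5 followed the order of Hspa1a, at 679, 822 and 868 CPM and then 533, 585 and 715.

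Hspb1 was carried by few barcodes. It had 462 UMIs in CD8 T cells at day 13 (9.12 CPM) and 148 at day 19 (5.18 CPM), and 405 and 26 UMIs in CD4 T cells (22.9 and 1.84 CPM). The 1% of CD8 barcodes with the most Hspb1 held 95.2% and 88.5% of its UMIs, and a single day-13 barcode held 117. A ratio of Hspb1 between groups therefore rests on a handful of barcodes. For Hspa1a the same 1% held 23.6% and 20.4% of UMIs, for Hspa1b 18.5% and 17.4%, and for Hspa8 5.69% and 4.85%. Dnajb1 (10.6% and 10.0%) and Hsph1 (8.85% and 9.11%) were less concentrated than the Hsp70 pair, at shares close to those of Hspd1 (12.8% and 10.2%) and Hspe1 (8.01% and 7.19%).

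**Figure D1:**
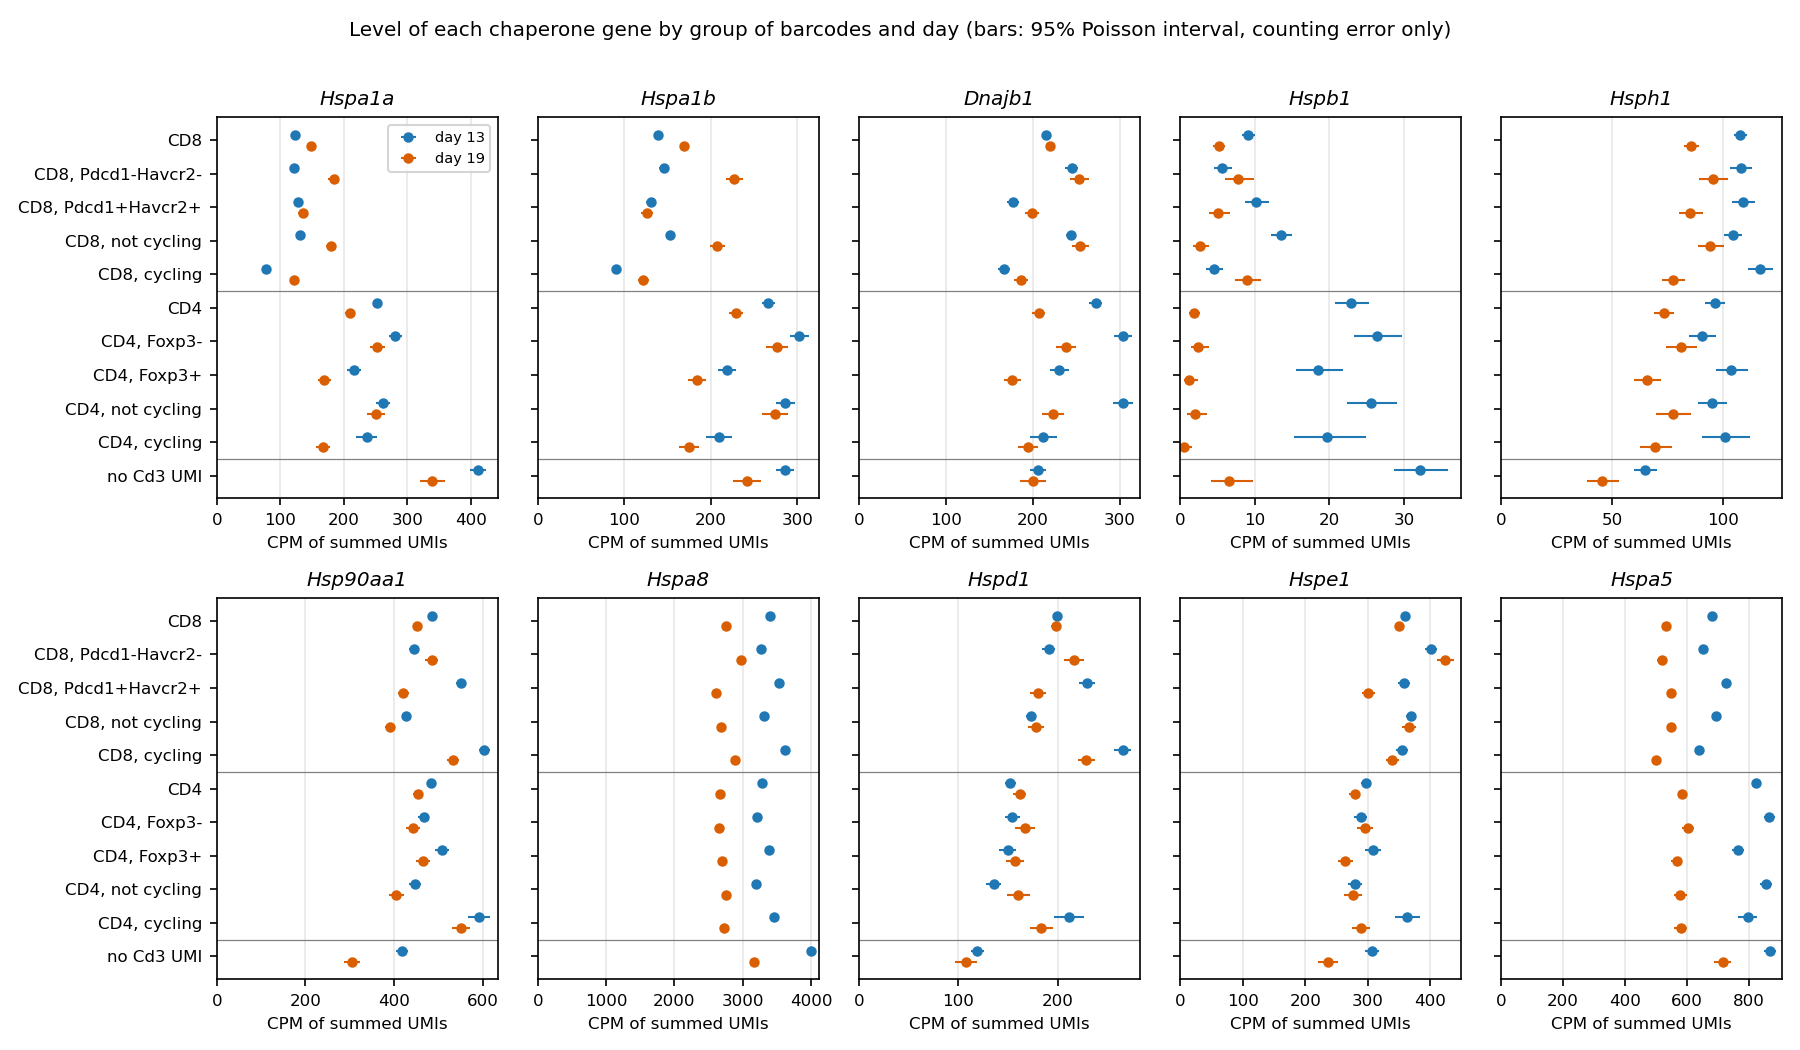
Level of each gene (x axis, CPM of summed UMIs, each panel on its own scale) in 11 groups of barcodes (y axis) at day 13 (blue) and day 19 (orange), with bars for the 95% Poisson interval of the sum. Hspa1a and Hspa1b lie further right in CD4 T cells and without Cd3 than in CD8 T cells, while Hsph1 and Hspd1 lie further left without Cd3; Hspa8 and Hspa5 lie left of their day-13 value at day 19 in every group drawn.

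Between the days, CD8 T cells held less Hspa8 and Hspa5 at day 19, and slightly more Hspa1a and Hspa1b. Hspa8 went from 3405 to 2756 CPM, log2 -0.31 [-0.32 to -0.29], and Hspa5 from 679 to 533, log2 -0.35 [-0.38 to -0.32]. In the contig sets Hspa8 stood at 3254, 3534, 3414 and 3377 CPM at day 13 and at 2426, 2646, 3042 and 3082 at day 19. Every day-19 set lay below every day-13 set. Hspa5 stood at 647, 668, 636 and 626 and then at 432, 535, 593 and 536, again without overlap. Such separation downward was found for 2 of the 10 genes, against 13.4% of 12373 genes tested, and upward for 0 (8.4%), and both differences were under 1.5-fold.

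Hspa1a went from 123 to 149 CPM (log2 ratio 0.28 [0.22 to 0.33]) and Hspa1b from 139 to 169 (0.29 [0.23 to 0.34]). Their sets overlapped: Hspa1a stood at 99.7, 126, 93.0 and 64.1 CPM at day 13 and at 119, 138, 255 and 63.9 at day 19, with the third set of day 19 above the other 7. Without that set the ratio of Hspa1a was 0.09 and that of Hspa1b 0.15. Dnajb1 (0.03 [-0.01 to 0.08]), Hspd1 (-0.01 [-0.06 to 0.04]) and Hspe1 (-0.04) were close to level, Hsp90aa1 was at -0.10 [-0.13 to -0.07] and Hsph1 at -0.33 [-0.40 to -0.26]. Past 1.5-fold, 0 of 10 genes were higher at day 19 (against 6.84% of all genes) and 1 was lower, Hspb1, at -0.82 [-1.09 to -0.55] (against 10%). A single barcode held 117 of its 462 UMIs at day 13, and without it the ratio was -0.39. The median over the 10 was -0.07 and over all genes -0.04.

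Relatives of these genes moved little between the days in CD8 T cells. In a list of 31 cytosolic chaperones and HSF1 targets, 2 of 30 tested genes were past 1.5-fold higher and 2 lower, near the 6.84% and 10% of all genes. The lower ones were Dnaja1, another Hsp40 (from 445 to 296 CPM), and Chordc1, an Hsp90 cofactor (from 100.4 to 66.6), and Hspbp1, an exchange factor of Hsp70, was higher (44.2 and 67.4). None of the 8 subunits of the TRiC ring, which folds actin and tubulin, none of 8 further mitochondrial chaperones and proteases and none of 18 endoplasmic reticulum genes was past 1.5-fold in either direction, with medians of 0.11, 0.16 and -0.10. Immediate early genes, which respond to receptor signals and to handling, were lower at day 19 for 5 of 13 (10% of all genes), with a median of -0.51, for example Atf3 from 285 to 153 CPM. Their summed level was 10229.6 CPM at day 13 and 7056 at day 19, and its part in the chaperone values was not tested.

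**Figure D2:**
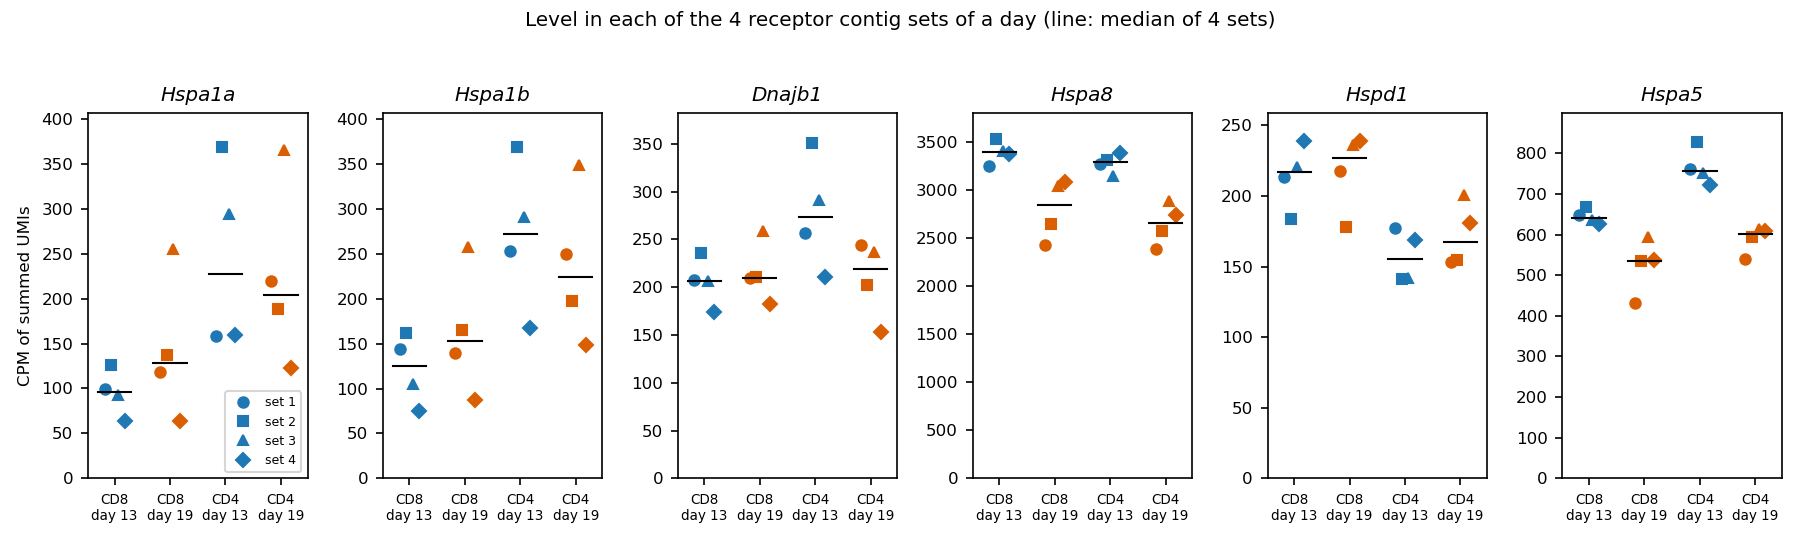
CPM (y axis, from 0) of 6 of the genes in each of the 4 TCR contig sets of a day (symbols), for CD8 and CD4 T cells at day 13 (blue) and day 19 (orange), with a line at the median of the 4 sets. For Hspa8 and Hspa5 the orange points lie below the blue ones within each class, whereas the points of Hspa1a, Hspa1b, Dnajb1 and Hspd1 overlap.

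Restricting CD8 T cells to barcodes under 3 myeloid UMIs enlarged the difference in the Hsp70 genes. Hspa1a then stood at 68.6 CPM at day 13 and 179 at day 19, log2 1.39 [1.26 to 1.51], and Hspa1b at 119 and 242, 1.03 [0.93 to 1.13]. The set values of Hspa1a were 40.1, 87.9, 75.0 and 22.0 CPM at day 13 and 48.3, 152, 307 and 56.6 at day 19. These overlapped, with the highest in the third set of day 19. Hspb1, on 26 and 35 UMIs, turned from lower to higher at day 19, 1.87 [1.10 to 2.66]. Together 3 of 10 genes were past 1.5-fold higher, against 5.41% of 9964 genes, and 0 lower (5.42%). Hspa1a and Hspa1b, near copies with an uncertain split of counts, are not separate among these 3. Hspa8 (-0.23 [-0.25 to -0.20]) and Hspa5 (-0.26 [-0.32 to -0.21]) stayed lower at day 19, from 3300.4 to 2819 and from 622 to 518 CPM. Hsph1 went from 112 to 105 CPM (-0.09 [-0.23 to 0.04]) and was at 0.0014 when cycling barcodes were also left out, chosen after seeing the data. Hsp90aa1 (0.18 [0.11 to 0.24]) and Hspe1 (0.20 [0.13 to 0.26]) turned higher at day 19 in this subset.

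The level of Hspa1a in T cell barcodes varied with their myeloid RNA. At day 13 it was 68.6 CPM in CD8 barcodes with 0 to 2 myeloid UMIs and 208 in those with 100 or more, and 127 and 307 in CD4 barcodes. At day 19 the same ends were 179 and 204 in CD8, and 179 and 222 in CD4 barcodes, with lower CD8 values between them. Hspb1 differed most, from 1.57 to 25.0 CPM in CD8 and from 1.40 to 35.8 in CD4 barcodes at day 13. Hspa5 went from 622 to 784 and from 669 to 935 CPM, and Hsph1 in the opposite direction in CD4 barcodes at day 19, from 98.8 to 59.4. The part of myeloid RNA in the values of all barcodes was not tested beyond these subsets.

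**Figure D3:**
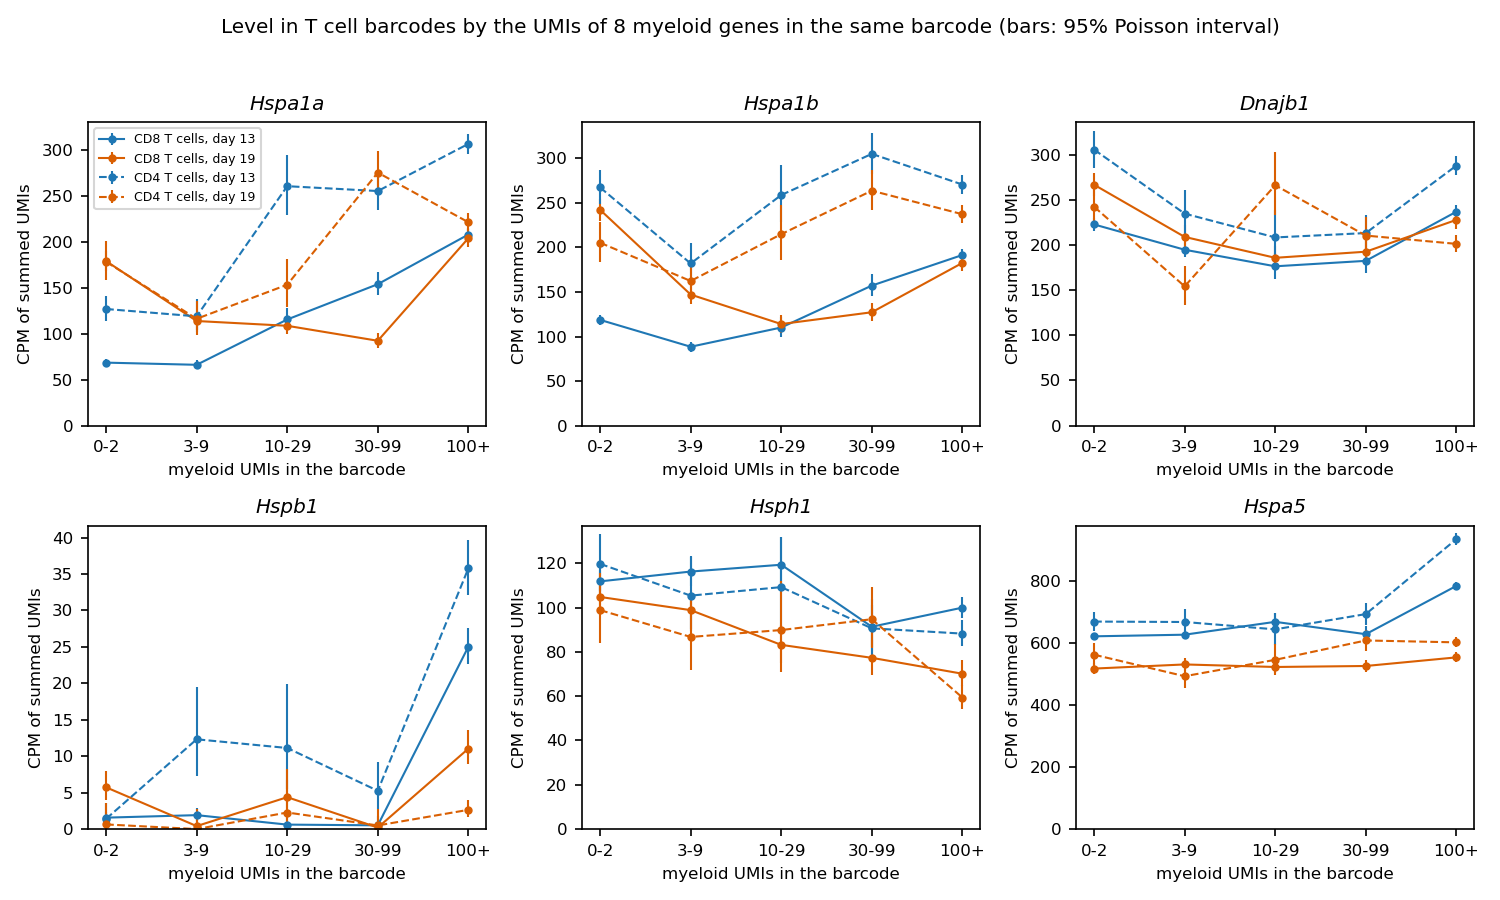
CPM (y axis, from 0, with 95% Poisson intervals) of 6 genes in CD8 (solid) and CD4 (dashed) T cell barcodes at day 13 (blue) and day 19 (orange), by the UMIs of 8 myeloid genes in the same barcode (x axis, 5 ranges). At day 13 Hspa1a, Hspb1 and Hspa5 are highest at 100 or more myeloid UMIs in both classes, whereas the CD8 curve of Hspa1a at day 19 is lowest at 30 to 99.

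In CD4 T cells Hspa8 and Hspa5 were again lower at day 19, with every day-19 set below every day-13 set. Hspa5 went from 822 to 585 CPM, log2 -0.49 [-0.53 to -0.45], with sets at 761, 829, 751 and 723 and then 539.5, 594, 614 and 608. Hspa8 went from 3283 to 2670.2, -0.30 [-0.32 to -0.28], with set ranges of 3148 to 3388 and 2392 to 2885. These 2 genes compare with 7.15% of 11432 genes whose day-19 sets all lay lower, and 0 of the 10 had them all higher (9.27%). Dnajb1 (-0.40 [-0.46 to -0.33]) and Hsph1 (-0.39 [-0.51 to -0.28]) were lower as well, but their sets overlapped. Hspa1a (253 and 210.3 CPM, -0.27 [-0.34 to -0.20]) and Hspa1b (267 and 229, -0.22 [-0.28 to -0.15]) were lower, the opposite sign to CD8 T cells, and the Hspa1a sets spanned 158 to 368 and 123 to 365 CPM.

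Past 1.5-fold only Hspb1 was lower in CD4 T cells at day 19 (-3.64 [-4.27 to -3.07]), 1 of 10 genes against 7.48% of all, and 0 were higher (8.2%). The median of the 10 was -0.28 and that of all genes 0.03. Among barcodes under 3 myeloid UMIs and not cycling, chosen after seeing the data, the median of the 10 was 0.094. Under 3 myeloid UMIs, Hspa1a was at 0.49 [0.26 to 0.72] and Hspa1b at -0.38 [-0.57 to -0.19], and 0 of 9 tested genes were past 1.5-fold higher (7.06%) or lower (7.09%). Hsph1 was at -0.28 [-0.56 to 0.00] there and turned to 0.20 when cycling barcodes were left out as well. In all CD4 barcodes, where 8.2% of all genes were higher and 7.48% lower, 0 of 29 genes of the cytosolic list were higher and 3 lower, among them Dnaja1 (462 and 289 CPM), and of the endoplasmic reticulum list 2 of 18 were lower, among them Ddit3, a stress-induced transcription factor (36.1 and 23.8). No TRiC or mitochondrial gene was past 1.5-fold. Immediate early genes were lower for 9 of 13 (median -0.83), for example Egr1 from 792 to 374 CPM, and their summed level was 17205 and 10719.7 CPM.

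CD8 T cells held less Hspa1a and Hspa1b than CD4 T cells of the same day, and more Hspd1 and Hspe1. At day 13 Hspa1a was 2.06-fold lower in CD8, at 123 against 253 CPM, log2 -1.04 [-1.10 to -0.98], and Hspa1b was at -0.94 [-0.998 to -0.89]. Within the sets, CD8 barcodes were at 99.7, 126, 93.0 and 64.1 CPM and CD4 barcodes of the same sets at 158, 368, 294 and 159.9. CD8 was below CD4 in all 4. With Hspb1 (-1.33 [-1.53 to -1.13]), 3 of 10 genes were past 1.5-fold lower, against 18% of 12284 genes, and 0 higher (8.21%). Hspb1 turned to 0.16 under 3 myeloid UMIs, on 26 UMIs in CD8 and 4 in CD4 T cells. Lower in all 4 sets were Hspa1a, Hspa1b, Dnajb1 (-0.34) and Hspa5 (-0.28), 4 of 10 against 29%. Higher in all 4 were Hsph1 (0.16, but -0.10 [-0.27 to 0.07] under 3 myeloid UMIs), Hspd1 (0.39 [0.33 to 0.45]) and Hspe1 (0.28 [0.23 to 0.32]), 3 of 10 against 21.1%.

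At day 19 the difference in Hspa1a was -0.49 [-0.56 to -0.43], from 149 against 210.3 CPM, and in Hspa1b -0.44 [-0.50 to -0.37], while Dnajb1 was at 0.09, the opposite sign to day 13. Only Hspb1 was past 1.5-fold, higher in CD8 T cells (1.495 [0.89 to 2.16], 148 against 26 UMIs), 1 of 10 against 7.53%, and 0 were lower (19.4%). Hspa1a, Hspa1b and Hspa5 were lower in all 4 sets, 3 of 10 against 34.5%, and Hspa8, Hspd1 (0.29) and Hspe1 (0.33) higher in all 4, 3 of 10 against 17.6%. Under 3 myeloid UMIs, the difference at day 13 remained for Hspa1a (68.6 against 127 CPM, -0.89 [-1.06 to -0.71]) and Hspa1b (-1.17 [-1.29 to -1.05]), 2 of 9 genes past 1.5-fold lower against 11.5% and 0 higher (7.34%). At day 19 it did not, with Hspa1a at 0.01 [-0.18 to 0.20] and Hspa1b at 0.24 [0.06 to 0.42], and 0 of 9 genes were past 1.5-fold lower (17.4%) or higher (8.13%). Hspd1, higher in CD8 T cells in all barcodes, was then at 0.09 and -0.09. CD4 barcodes held more myeloid RNA (median 44 and 62 against 3 and 7 UMIs) and more immediate early RNA, with 10 and 7 of 13 such genes past 1.5-fold lower in CD8 (18% and 19.4% of all genes). Of the other lists, the cytosolic one had 1 gene higher and 2 lower in CD8 at day 13 and 3 and 3 at day 19, the mitochondrial one 1 and 0, then 0 and 0, the endoplasmic reticulum one 0 and 0, then 0 and 1, and TRiC none. Scaling without mitochondrial, ribosomal and receptor genes raised all CD8 over CD4 ratios by 0.11 at day 13 and 0.15 at day 19, which turns Hsp90aa1 and Hspa5 above 0 at day 19.

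Among CD4 T cells, those with a UMI of Foxp3, the factor of regulatory T cells, held less of the inducible Hsp70 set. At day 13, 479 barcodes with Foxp3 and 898 without stood at 216 and 281 CPM of Hspa1a (-0.38 [-0.47 to -0.29]), 219 and 302 of Hspa1b (-0.47 [-0.56 to -0.38]), and 230.4 and 303 of Dnajb1 (-0.40 [-0.48 to -0.31]). At day 19, 391 and 584 barcodes stood at 169 and 253 CPM of Hspa1a (-0.58 [-0.68 to -0.47]), 184 and 276 of Hspa1b (-0.59 [-0.69 to -0.49]), and 176 and 238 of Dnajb1 (-0.43 [-0.54 to -0.33]). All 3 genes, and Hspa5 (-0.18 and -0.09), were lower with Foxp3 in all 4 sets of both days. That made 4 of 10 genes at day 13 against 12.1% of 10517, and 6 of 9 at day 19 against 11.5% of 10188, where Hsph1 (-0.30 [-0.48 to -0.12]) and Hspe1 (-0.16 [-0.25 to -0.07]) joined. At day 13 both had the opposite sign, Hsph1 at 104 with and 90.6 CPM without Foxp3 (0.20 [0.06 to 0.34]) and Hspe1 at 308 and 288 (0.10 [0.02 to 0.18]), with the sets divided. Higher in all 4 sets were 0 genes at day 13 (11.3%) and 2 at day 19 (12.8%), Hsp90aa1 (0.07) and Hspa8 (0.02, below 0 with the other scalings).

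The differences were small: past 1.5-fold, 0 of 10 genes were lower at day 13 (against 3.57%) and 0 higher (4.59%), and at day 19 1 of 9, Hspb1 being too rare to test, was lower, Hspa1b (against 4.2%), and 0 higher (5.88%). That call ends without the 1 barcode richest in Hspa1b among those without Foxp3, at -0.53. Under 3 myeloid UMIs, which leaves 98 and 51 barcodes with Foxp3, Hspa1a was at 67.3 against 148 CPM at day 13 (-1.14 [-1.60 to -0.70]) and at 82.8 against 218 at day 19 (-1.40 [-1.93 to -0.90]). These are 50 and 38 UMIs with Foxp3. Past 1.5-fold lower there was 1 of 9 genes at day 13 (7.41%), Hspa1a, while Hspa1b, at 200 against 291 CPM, and Dnajb1 were not past it. At day 19 there were 3 (10.5%), Hspa1a, Hspa1b (-0.91) and Hsph1 (-0.79), and Dnajb1 was again not past it. On both days 0 were higher (8.12% and 10.3%). In this subset Hsph1 was at 0.37 [0.03 to 0.71] at day 13, and Hspa8 at day 19 was at -0.31 [-0.41 to -0.21]. Foxp3 barcodes were deeper (median 13260 and 15660 against 8980 and 9643 UMIs) and held more myeloid UMIs (median 60 and 108 against 29 and 40.5), and the part of either in these values was not tested beyond that subset. Immediate early genes did not separate the groups past 1.5-fold in all barcodes (0 of 13 in either direction on both days, medians -0.14 and -0.04), nor did the mitochondrial or endoplasmic reticulum lists. At day 19 under 3 myeloid UMIs, however, 7 of 12 tested immediate early genes were lower with Foxp3, beside 10.5% of all genes, and 1 of 12 at day 13 (7.41%). Their part in the Hsp70 values was not tested. Of the TRiC subunits Cct6a alone was past it, at day 13 (104 against 193 CPM), and of the cytosolic list 1 gene was higher on each day, Hspa2 at day 13 and Fkbp5 at day 19.

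CD8 T cells were divided by UMIs of Pdcd1, which encodes the checkpoint receptor PD-1, and Havcr2, which encodes TIM-3 and marks late exhaustion in T cells. Neither was found in 2051 barcodes at day 13 and 879 at day 19, Pdcd1 alone in 1299 and 549, Havcr2 alone in 213 and 98, and both in 682 and 621. Under 3 myeloid UMIs these were 1240 and 482 with neither, 721 and 166, 14 and 7, and 129 and 71 with both. The source of a Havcr2 UMI in a barcode that also held myeloid RNA was not tested. In barcodes with both, Hspa1b and Dnajb1 were lower than in those with neither on both days. Dnajb1 stood at 177 against 244 CPM at day 13 (-0.47 [-0.54 to -0.40]) and at 199 against 254 at day 19 (-0.35 [-0.44 to -0.26]). Hspa1b stood at 131 against 146 (-0.16 [-0.25 to -0.07]) and at 126 against 227 (-0.85 [-0.95 to -0.75]). Both genes were lower in all 4 sets of each day. Hspa1a was level at day 13, 127 against 122 CPM (0.06 [-0.03 to 0.15]), although it was lower in all 4 sets, which hold barcodes with a contig only, and lower at day 19, 135 against 184 (-0.44 [-0.55 to -0.34]), where the sets were divided.

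At day 13 only Hspb1 was past 1.5-fold (0.85 [0.47 to 1.24]), 1 of 10 genes higher against 21.8% of 11098, with 0 lower (7.69%), and at day 19 Hspa1b and Hspb1 were lower, 2 of 10 against 8.39% of 10386, with 0 higher (19.1%). Both calls of Hspb1 end without 1 barcode, at 0.49 at day 13 and at 0.00 at day 19. The day-13 ratio also turned below 0 in some alternatives, among them -1.71 under 3 myeloid UMIs, -4.30 with a contig and -1.51 after thinning. Higher in all 4 sets at day 13 were Hsp90aa1 (551 against 444 CPM, 0.31 [0.27 to 0.36]), Hspd1 (229.6 against 191, 0.26 [0.19 to 0.33]) and Hspa8 (0.11), 3 of 10 against 34.4%. Among barcodes not cycling and under 3 myeloid UMIs, chosen after seeing the data, Hsp90aa1 was at -0.41, and among all those not cycling Hspd1 was at -0.14. Lower in all 4 sets of day 13 were 4 genes against 17%, namely Hspa1a, Hspa1b, Dnajb1 and Hspa5. At day 19 Hsp90aa1 (-0.20 [-0.26 to -0.14]), Hspd1 (-0.27 [-0.36 to -0.17]), Hspe1 (-0.49 [-0.56 to -0.43]) and Hspa8 (-0.19 [-0.21 to -0.16]) were all lower with both receptors. Of these, Hspd1 was level under 3 myeloid UMIs (203 against 203 CPM, 0.00 [-0.27 to 0.25]) and at 0.12 when cycling barcodes were left out as well. In all 4 sets of that day 4 genes were lower (Hspa1b, Dnajb1, Hspa8 and Hspe1, against 15.5%) and 1 was higher, Hspa5 (against 27.4%). The median of the 10 genes was 0.09 at day 13 and -0.31 at day 19, beside 0.13 and 0.11 over all genes.

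At day 13 several other endoplasmic reticulum genes differed by receptor state more than Hspa5, which was at 725 against 651 CPM at day 13 (0.16 [0.12 to 0.19], but -0.04 [-0.14 to 0.07] under 3 myeloid UMIs) and 549 against 518 at day 19 (0.08 [0.03 to 0.14]). Of the list of 18, 9 were past 1.5-fold higher with both receptors at day 13, where 21.8% of all genes were, and 4 at day 19, a share near the 19.1% of all genes. On each day 1 was lower (7.69% and 8.39%), and the medians were 0.60 and 0.35, beside 0.13 and 0.11 over all genes. Sdf2l1, which works with BiP, stood at 117 against 45.8 CPM (1.36) and Creld2, a stress-induced secretory pathway protein, at 80.9 against 36.0 (1.17) at day 13, and Hsp90b1, the reticulum's Hsp90, at 523 against 306 (0.78) at day 19. Dnajb9, an Hsp40 of the reticulum, was the lower one, at 41.6 against 68.7 CPM at day 13 (-0.72). The cytosolic list had 3 genes higher and 0 lower at day 13 and 1 and 1 at day 19, the mitochondrial list none, TRiC 1 lower on each day (Cct6a), and the immediate early list 2 higher and 1 lower, then 1 and 1.

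Barcodes with both receptors were also deeper (median 18505.5 and 14853 against 6903 and 7787 UMIs) and held more myeloid UMIs (median 67 and 30 against 2 and 2), and the part of depth was not tested beyond the values here. Under 3 myeloid UMIs at day 19, Hspa1a stood at 51.0 against 207 CPM (-2.02 [-2.53 to -1.55]), Hspa1b at 81.9 against 285 (-1.80 [-2.20 to -1.43]) and Dnajb1 at 141 against 295 (-1.07 [-1.37 to -0.78]), 3 of 9 genes past 1.5-fold lower against 12.3% of 6981, and 0 higher (24.1%). At day 13 the same subset gave -0.62 [-0.98 to -0.27], -0.54 [-0.82 to -0.26] and -0.59 [-0.79 to -0.40], 2 of 9 genes lower against 11.3% and 0 higher (20.3%). Without the 1 barcode richest in the gene among those with neither receptor, both of these, Hspa1a and Dnajb1, miss 1.5-fold, at -0.54 and -0.56. In this subset 11 of 13 immediate early genes were lower with both receptors at day 13 (11.3% of all genes) and 6 at day 19 (12.3%), and their part was not tested. The Hsp70 and Dnajb1 differences by receptor state were larger in this subset on both days than in all barcodes. Among all barcodes Hspa1a was lowest of the 4 states with Pdcd1 alone (91.9 and 117 CPM) and highest with Havcr2 alone (235 and 209), which had a median of 225 and 128 myeloid UMIs. That order did not hold under 3 myeloid UMIs: Hspa1a was lowest with both receptors (51.5 and 51.0 CPM), stood at 55.9 and 175 with Pdcd1 alone, and with Havcr2 alone rested on 20 and 7 UMIs (180.2 and 98.2). Scaling without mitochondrial, ribosomal and receptor genes lowered the day-13 ratios by 0.20, which turns Hspa1a, Hsph1, Hspa8 and Hspa5 below 0, and those of day 19 by 0.18, which turns Hspa5 below 0.

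Cycling CD8 T cells, those with at least 3 UMIs over 7 cycle genes such as Mki67 and Top2a, held more Hsp90aa1 and Hspd1 and less of the inducible Hsp70 genes than CD8 T cells with none. There were 632 and 556 cycling and 2828 and 1154 noncycling barcodes at day 13 and day 19. Hsp90aa1 stood at 604 against 426 CPM (0.50 [0.46 to 0.54]) and at 534 against 391 (0.45 [0.39 to 0.50]), and Hspd1 at 266 against 173 (0.61 [0.55 to 0.68]) and at 229 against 178 (0.36 [0.28 to 0.45]). Hspe1, whose start region is shared with Hspd1, did not follow it in CD8 T cells (-0.06 [-0.11 to -0.01] and -0.11 [-0.17 to -0.04]). Hspa1a stood at 76.8 against 131 CPM (-0.77 [-0.86 to -0.67]) and at 121 against 179.6 (-0.57 [-0.67 to -0.47]). Hspa1b was at -0.75 and -0.77, and Dnajb1 at -0.55 and -0.45.

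All of these except Hspe1 had the same direction in all 4 sets of both days. Higher in all 4 at day 13 were Hsph1 (0.16), Hsp90aa1, Hspa8 (0.13) and Hspd1, 4 of 10 against 29.5% of 11365 genes, and lower 5, the Hsp70 pair, Dnajb1, Hspb1 and Hspa5 (-0.12), against 25.5%. At day 19, 3 were higher, Hsp90aa1, Hspd1 and Hspa8 (0.11, below 0 when scaled without mitochondrial, ribosomal and receptor genes), against 27.9%, and 4 were lower (16.9%). Hsph1 had the opposite sign at day 19, 77.5 against 94.3 CPM (-0.28 [-0.41 to -0.15]). Past 1.5-fold at day 13, Hspd1 was higher, 1 of 10 against 14.9%, and Hspa1a, Hspa1b and Hspb1 lower, 3 against 8.87%. At day 19 Hspb1 was higher (1.74 [1.13 to 2.39], 1 of 10 against 15.3% of 10577) and Hspa1b lower (1 against 6.16%), and the ratio of Hspb1 has the opposite sign to day 13 (-1.59 [-1.99 to -1.20]). Among barcodes with at most 20000 UMIs the day-19 ratio of Hspb1 turned to -0.82. Barcodes with 1 or 2 cycle UMIs did not lie between the ends for Hspa1a at day 13, at 169 CPM, and did at day 19, at 149.7.

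In CD4 T cells, with 154 and 236 cycling against 855 and 465 noncycling barcodes, Hsp90aa1 was higher again, 591 against 448 CPM (0.40 [0.32 to 0.48]) and 550.4 against 405 (0.44 [0.36 to 0.52]), and in all 4 sets of each day. Hspd1 stood at 211 against 136 CPM (0.64 [0.50 to 0.77]), 1 of 10 genes past 1.5-fold higher against 9.01% of 9931, with 0 lower (6.34%), and at 183 against 160.4 at day 19 (0.19 [0.06 to 0.33]). The day-13 call ends without 1 cycling barcode with 74 of 732 UMIs, at 0.50. Hspe1 was higher with Hspd1 at day 13, 363 against 280 CPM (0.38 [0.28 to 0.47]), with the sets divided, and at 0.06 [-0.04 to 0.17] at day 19. It turned under 3 myeloid UMIs, to -0.15 [-0.57 to 0.24] at day 13, and to -0.79 with at least 8000 UMIs as well, and was at -0.49 [-0.88 to -0.11] at day 19. Hspd1 under 3 myeloid UMIs was at 0.45 [-0.01 to 0.88] at day 13 and turned at day 19, 195 against 249 CPM (-0.35 [-0.80 to 0.08]). Hspa1b was lower, 209 against 286 CPM (-0.45 [-0.57 to -0.33]) and 175 against 274 (-0.65 [-0.77 to -0.53]), the last being 1 of 9 genes past 1.5-fold lower against 4.19% of 9680, with 0 higher (10.8%). The day-13 ratio of Hspa1b turned to 0.24 among barcodes with at most 20000 UMIs. Hspa1a was at -0.15 [-0.26 to -0.03] and -0.58 [-0.71 to -0.45]. In all 4 sets, 1 gene was higher (14.1%) and 0 lower (13%) at day 13, and 2 (18.6%) and 2 (12.2%) at day 19. At day 13 the sets were divided for Hspa1a, Hspa1b and Hspd1, whereas at day 19 each of these 3 had 1 sign in all 4 sets of all barcodes.

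Around them, endoplasmic reticulum genes were higher in cycling CD8 T cells for 8 of 18 at day 13 (14.9% of all genes) and 4 at day 19, near the 15.3% of all genes, for example Sdf2l1 at 131 against 55.1 CPM and 124 against 57.4, and Dnajb9 was lower (33.6 against 65.2 at day 13), while Hspa5 was at -0.12 [-0.16 to -0.09] and -0.13 [-0.19 to -0.08]. No TRiC subunit or mitochondrial gene was past 1.5-fold, although the subunit Tcp1 was at 0.55 and 0.52. The cytosolic list had 3 higher and 1 lower of 28 at day 13 and 2 and 1 at day 19, no more than the shares of all genes. Immediate early genes were lower in cycling cells for 5 of 13 at day 13 (8.87% of all genes), for example Jun at 565 against 1061 CPM, and for 2 at day 19 (6.16%). In CD4 T cells the counts higher and lower were 2 and 1 and then 3 and 1 for the endoplasmic reticulum, 1 and 1 and then 3 and 1 for the cytosolic and 0 and 1 and then 0 and 0 for the immediate early list, beside 9.01% and 6.34% and then 10.8% and 4.19% of all genes. Cycling barcodes were much deeper, with medians of 20270.5 and 18854 against 7198.5 and 8068.5 UMIs in CD8 T cells, and held more myeloid UMIs, with medians of 6 and 19 against 2 and 3 in CD8 and 158.5 and 164.5 against 12 and 21 in CD4 T cells. Scaling without mitochondrial, ribosomal and receptor genes lowered the cycling CD8 ratios by 0.12 at day 13 and 0.13 at day 19.

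Under 3 myeloid UMIs, cycling over noncycling CD8 T cells gave 0.50 [0.41 to 0.59] and 0.47 [0.34 to 0.60] for Hsp90aa1, 0.39 [0.25 to 0.53] and 0.68 [0.48 to 0.87] for Hspd1, and -0.73 [-0.97 to -0.49] and -1.05 [-1.32 to -0.80] for Hspa1b. The directions were those of all barcodes. Of the 308 Hspd1 UMIs in the 72 cycling barcodes of day 19, 73 were in 1 barcode, without which Hspd1 stood at 225 against 175 CPM (0.36). At day 13, 2 of 9 genes were past 1.5-fold lower (13.1%) and 0 higher (20%), and at day 19 2 and 1 (11.9% and 20.8%), the 1 being Hspd1, whose call ends without that barcode. Immediate early genes were lower in cycling cells of this subset for 9 of 13 at day 13 and 8 at day 19 (13.1% and 11.9% of all genes), and their part was not tested. When barcodes were also limited to at least 8000 UMIs, chosen after seeing the data, Hsp90aa1 was at 0.46 and 0.41, Hspa1b at -0.44 and -0.63, and Hspa1a at -0.78 at day 13 but 0.03 at day 19. In CD4 T cells under 3 myeloid UMIs, 18 and 20 cycling barcodes gave 1 of 9 genes past 1.5-fold higher at day 13, Hsp90aa1 (0.70 [0.44 to 0.95], or 0.38 without 1 barcode that held 45 of its 147 UMIs), against 17.1%, and 2 lower, Hspa1b and Dnajb1 (18.2%), and 0 higher (14.7%) and 3 lower (17.7%) at day 19, Hspa1a, Hspa1b and Hsph1. Immediate early genes were lower in these cycling cells too, for 12 of 12 tested at day 13 (median -1.38) and 9 of 11 at day 19 (median -0.83), against 18.2% and 17.7% of all genes. Their summed level was 5884 against 14234 CPM and then 5408 against 10009, and their part was not tested.

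**Figure D4:**
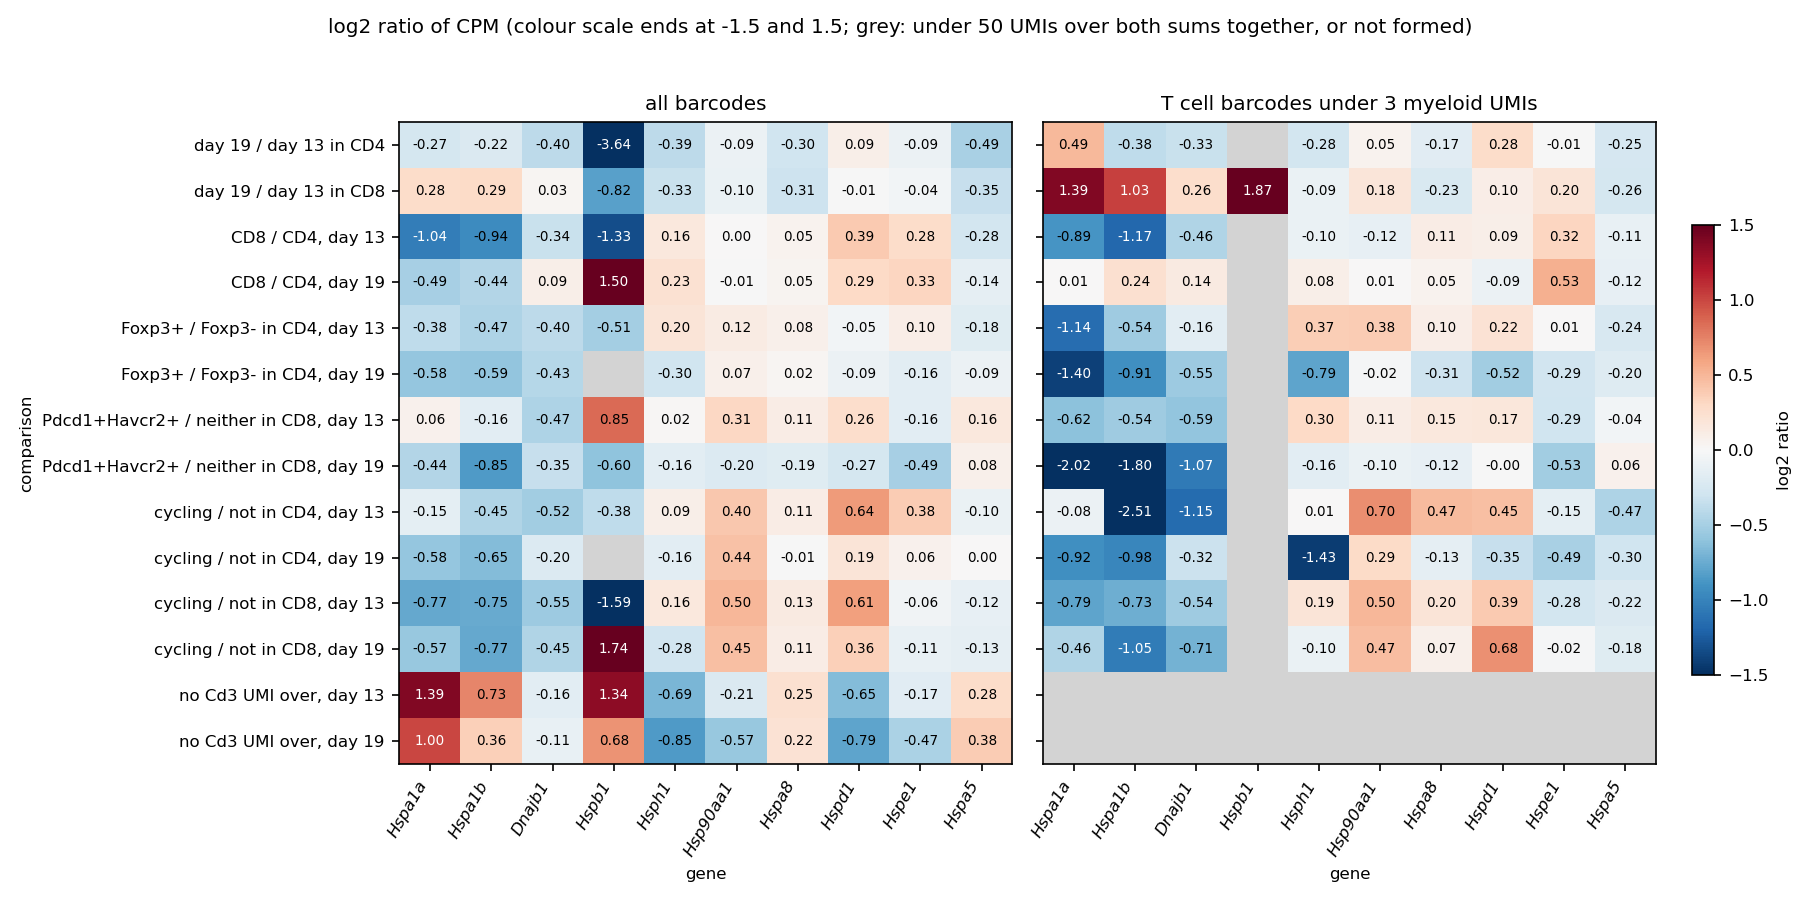
Log2 ratio of CPM (number and color, red higher in the first-named group) for each gene (x axis) in 14 comparisons (y axis), in all barcodes (left) and in T cell barcodes under 3 myeloid UMIs (right). In both panels Hspa1b and Dnajb1 are below 0 in all rows for Pdcd1 and Havcr2, Foxp3 and cycling, and Hsp90aa1 is above 0 in the 4 rows for cycling; grey cells have under 50 UMIs over both sums together, and the rows for barcodes without Cd3 are not drawn in the right panel.

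Barcodes without a Cd3 UMI held the most Hspa1a of the classes. At least 3 UMIs of C1qa, C1qb and C1qc alone marked 51 of them at day 13 and 18 at day 19, those of the monocyte genes Ly6c2, Plac8 and Chil3 375 and 94, dendritic markers 29 and 7, natural killer markers 6 and 13, more than 1 group 537 and 201, and no group 21 and 10. Their remaining T cell markers summed to 16.6 and 34.9 CPM. Hspa1a stood at 412 against 157 CPM in T cells at day 13 (1.39 [1.34 to 1.45]) and at 339.8 against 169 at day 19 (1.004 [0.91 to 1.09]). T cells under 3 myeloid UMIs held 77.2 CPM of Hspa1a at day 13 and 179 at day 19. Hspa1b differed less (0.73 [0.67 to 0.79] and 0.36 [0.25 to 0.46]), and Dnajb1 was slightly lower (-0.16 [-0.23 to -0.09] and -0.11 [-0.22 to 0.00]). Under 3 myeloid UMIs CD8 T cells held 119 and 242 CPM of Hspa1b and CD4 T cells 267 and 205, beside 285 and 242 without Cd3. At day 19 CD8 T cells of this subset were thus level with barcodes without Cd3. Hsph1 (-0.69 [-0.81 to -0.58] and -0.85 [-1.08 to -0.62]) and Hspd1 (119 against 187 CPM, -0.65 [-0.74 to -0.56], and 107 against 186, -0.79 [-0.94 to -0.64]) were lower on both days.

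Past 1.5-fold, Hspa1a, Hspa1b and Hspb1 were higher at day 13, 3 of 10 against 21.8% of 12564 genes, and Hsph1 and Hspd1 lower, 2 against 30.2%. At day 19 these were 2 higher (20.9% of 11861), Hspa1a and Hspb1, and 2 lower (27.6%). The Hspb1 value rests on 23 UMIs without Cd3, 12 of them in 1 barcode, without which the ratio turned to -0.38. The shares of called genes were thus near the background. Hspe1 (-0.17 and -0.47) and Hsp90aa1 (-0.21 and -0.57) were lower by less, Hspa8 (0.25 and 0.22) and Hspa5 (0.28 and 0.38) higher by less. Scaling without mitochondrial, ribosomal and receptor genes lowered these ratios by 0.18 and 0.19 and turned no sign. Of the lists, the immediate early one had 9 and 11 of 13 genes higher and none lower, for example Atf3 at 1517 against 384 CPM at day 13, the TRiC list 3 and 2 lower, among them Cct6a (68.9 against 157), the mitochondrial list 3 and 2 lower, and the endoplasmic reticulum list 3 and 2 higher. The cytosolic list had 6 and 7 higher and 3 and 3 lower, led by Serpinh1, a collagen chaperone (12.3 against 0.498 CPM and 30.9 against 1.24).

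The kinds of barcodes without Cd3 differed among themselves. Those with C1q genes at day 13 held 1721 CPM of Hspa5 and 489.7 of Dnajb1, against 683 and 134 in those with monocyte genes, and 488 against 349 CPM of Hspa1a. At day 19 the 18 C1q barcodes held 732, 122 and 136 CPM, the last on 30 UMIs, and the monocyte barcodes 658, 173 and 334. Thus C1q barcodes were above monocyte barcodes in Dnajb1 and Hspa1a at day 13 only. Monocyte barcodes had 4 and 0 UMIs of Hspb1, and 224 of the 321 Hspb1 UMIs of this class at day 13 were in barcodes with more than 1 marker group. Of the rest, 82 were in a single barcode, which had no marker group. Immediate early RNA was 35166 and 19116 CPM in C1q and 16838.5 and 15126 in monocyte barcodes.

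Across single CD8 T cells, the Hsp70 pair and Dnajb1 varied together, and weakly or not at all with Hspd1, Hspe1 and Hspa5. Correlations of log2(UMIs + 1) after thinning to 5000 UMIs, over 4245 barcodes at day 13 and 2147 at day 19, are descriptions, and the barcodes of a day share 1 library. Hspa1a with Hspa1b gave a Pearson r of 0.59 and 0.69, Hspa1b with Dnajb1 0.31 and 0.46, and Hspa1a with Dnajb1 0.23 and 0.40. Hsph1 with Hspa1b gave 0.16 and 0.28, and Hspd1 with Hspe1 0.20 and 0.21. The median of the 45 pairs was 0.11 on both days. Hspa1a with Hspd1 was at 0.00 and -0.01, with Hspe1 at 0.07 and 0.06, and with Hspa5 at 0.08 and 0.04. Among barcodes under 3 myeloid UMIs the strongest pair was at 0.56 and 0.73.

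**Figure D5:**
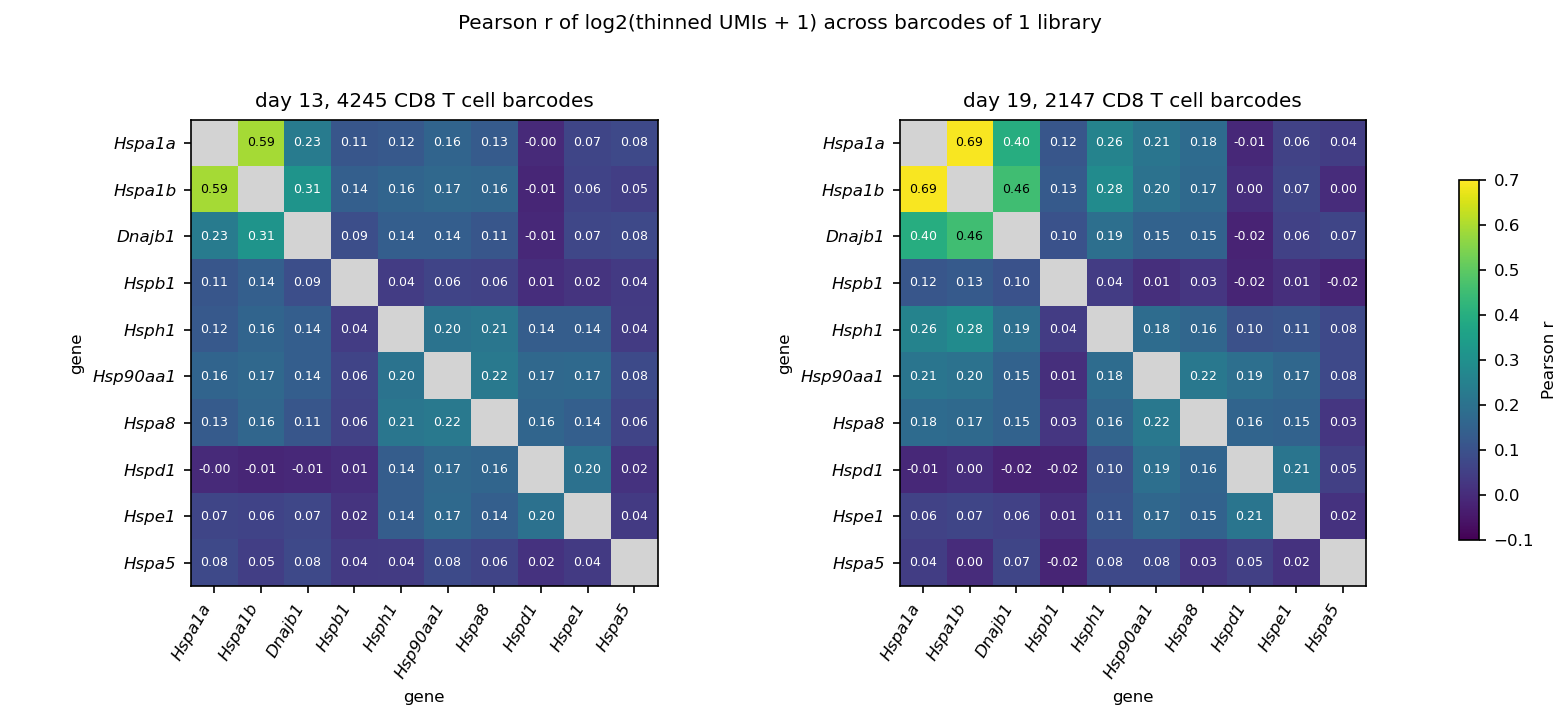
Pearson r (number and color) between each pair of the 10 genes (both axes) over CD8 T cell barcodes at day 13 (left, 4245 barcodes) and day 19 (right, 2147), on log2(UMIs + 1) after thinning to 5000 UMIs. The block of Hspa1a, Hspa1b and Dnajb1 in the upper left has the highest values, 0.23 to 0.59 and 0.40 to 0.69.

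Ranking 6926 genes by their mean correlation with each of the 10 named the closest neighbors (6927 for Hspb1). After each other, Hspa1a, Hspa1b and Dnajb1 all had Jun, an immediate early factor, as the third (0.28 and 0.35 with Hspa1a, 0.23 and 0.35 with Dnajb1). Hsp90aa1, Hspa8, Hspd1 and Hspe1 all had Hsp90ab1, the constitutive cytosolic Hsp90, as the first (0.31 and 0.26, 0.34 and 0.27, 0.25 and 0.29, 0.30 and 0.29). They were followed by Ptma for Hsp90aa1 and Hspd1, by Hsp90aa1 and Bst2 for Hspa8, by Ranbp1, a nuclear transport factor, after these for Hspd1, and by the nucleolar Npm1 and the polyamine enzyme Srm for Hspe1. Hsph1 was closest to Hspa1b, Hsp90aa1 and Hspa1a (0.16 and 0.28 for the first). Hspa5 had weak neighbors, Nfkbia (0.16 and 0.14), Junb and Hsp90b1, and Hspb1 had Rhob (0.18 and 0.11). Correlations this weak in sparse counts carry no finding.

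How many CD8 T cells carried the Hsp70 transcripts at a high level was counted with a limit of 5 thinned UMIs of Hspa1a and Hspa1b together, which cuts a range and defines no cell type. At day 13, 393 of 4245 barcodes (9.26%, exact interval 8.40% to 10.2%) reached it, 765 had 1 to 4 and 3087 had 0. At day 19 these were 257 (11.97%, 10.6% to 13.4%), 353 and 1537. In CD4 T cells 19.3% and 16.2% reached it, and without Cd3 21.7% and 21.0%. Over the contig sets the CD8 share was 9.23%, 10.5%, 7.68% and 3.98% at day 13 and 7.54%, 12.3%, 20.3% and 5.14% at day 19. The third set of day 19 was highest, and the others of both days overlapped.

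The levels in this paragraph are CPM of the thinned counts, unlike the levels given above. Going from 0 to at least 5 of these UMIs in CD8 T cells at day 13, Dnajb1 went from 172 to 570.0 CPM. Hsph1 went from 95.3 to 183, Hsp90aa1 from 402 to 613, Hspa8 from 3188 to 3878, Hspe1 from 344 to 426 and Hspa5 from 645 to 781, while Hspd1 went from 185 to 178. At day 19 Dnajb1 went from 155 to 776, Hsph1 from 64.9 to 246, Hspe1 from 336 to 420.2, Hspa5 from 532 to 577 and Hspd1 from 178 to 169.7. Of the genes named here, Hspd1 alone was not higher in barcodes rich in Hsp70. The immediate early list went with them, from 9105 to 14631 CPM at day 13 and from 6725 to 10361 at day 19, as did the cytosolic list, from 9079 to 10867 and from 8200.1 to 10107. The TRiC list did not (1458 to 1271 and 1518 to 1339). The mitochondrial list went from 350 to 310 CPM at day 13 and from 366 to 373 at day 19, and the endoplasmic reticulum list from 2156 to 2341 and from 2191 to 2075, and the median of myeloid UMIs was 2 and 5 at day 13 and 7 and 5 at day 19. What sets these barcodes apart was not tested.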

How the data were processed

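Gene expression of sorted T cells was measured in 1 droplet capture per day. The deposited matrices hold UMI counts per gene and barcode that the authors made with Cell Ranger 4.0.0 and STAR 2.7.5c on mm10, with bcl2fastq 2.20, Seurat and R 4.1.2 also named, per the submitters' processing notes; the matrix headers name Cell Ranger as well. The matrices are unfiltered, with 736611 and 735849 barcodes, 32285 genes, and 144565182 and 81224453 gene UMIs at day 13 and day 19. Barcode filters, classes and contig sets are as given above; a barcode counted as cycling with at least 3 UMIs over Mki67, Top2a, Birc5, Cdk1, Ccna2, Tpx2 and Nusap1, and the 8 myeloid genes were Lyz2, C1qa, C1qb, C1qc, Apoe, Cst3, Csf1r and Fcer1g.

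UMIs were summed per group and compared as a ratio of CPM, with an exact conditional Poisson interval, in 14 comparisons over all genes with at least 50 UMIs over both sums together. A group whose sum was 0 was set to a floor of 3 counts. Shares, correlations and the levels by class of Hsp70 UMIs used counts thinned to 5000 UMIs. With 1 capture per day no test between samples was possible. The calculation was checked on simulated counts for the day comparison in CD8 T cells over 12373 genes. Intervals held the true ratio for 95.5% of genes, and 197 of 200 genes changed by a log2 ratio of 1 were past 1.5-fold. This checks the calculation only, because the intervals leave out variation between barcodes, sets and mice. Named were the 10 genes, the highest or lowest 2 genes of each of 5 pathway lists (78 genes), and the 3 genes most correlated with each of the 10. The genes, lists and classes were chosen with earlier results of these data known. Alternatives changed the barcode filters, classes, total, TMM scaling (edgeR 4.0.16, R 4.3.3) and contig sets; those joining myeloid UMIs with cycling or depth, the limit of 10 myeloid UMIs, and leaving out the 1 barcode with the most UMIs of a gene, in either group, were chosen after seeing the data. The analysis used Python 3.11.15, numpy 2.4.6, scipy 1.17.1 and pandas 2.3.3. Antibody tag counts were not used here.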

Additional observations from a re-analysis of the deposited data

Results flagged for a closer look

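In the comparison of CD8 T cells with Pdcd1 and Havcr2 UMIs against those with neither, the contig sets of Hspa8 and Hspa5 changed sides between the days. Of all genes, 34.4% were higher and 17% lower in all 4 sets at day 13, and 27.4% and 15.5% at day 19. The share of all genes that changed sides was not computed, so how common this is was not tested. Hspa8 was higher in all 4 sets of day 13 (pooled log2 ratio 0.11) and lower in all 4 of day 19 (-0.19), a difference of -0.30 between the days. Hspa5 was lower in all 4 sets of day 13 and higher in all 4 of day 19, although its pooled ratios, which include barcodes without a contig, were 0.16 and 0.08, a difference of -0.073. With 1 capture per day the difference between the days was not tested for either gene. With either of the other scalings both genes were below 0 on both days.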

How the results depend on the processing

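Several limits apply: at least 3 myeloid UMIs were in 50.4% and 66.2% of CD8 T cell barcodes, cycling and receptor groups differ in depth, each day is 1 capture, and Hspb1 rests on few barcodes. Of 140 ratios (10 genes in 14 comparisons), 79 kept their sign in every alternative run. Hspb1 changed sign in 9 of its 14 comparisons, and of the 66 other ratios of at least 0.25 in size 14 changed sign in 1 or more alternatives. Of 536 counts of all genes past 1.5-fold, 74 moved by more than 1.5 times, 26 of them among the 28 with a minimum of 4 in place of 50 UMIs. No paired analysis was possible because each day has 1 gene expression sample: the contig sets do not link the days, and within a day they divide 1 capture, so their values side by side are a description and enter no test.

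The median log2 ratio of the genes tested in all barcodes (all 10, or 9 without Hspb1 for Foxp3 and cycling CD4 at day 19), by alternative, was as follows; the cause of these shifts was not tested. Hspb1 enters where it was under 50 UMIs in a subset: without it the 9 tested genes gave -0.04 and -0.16 for both receptors and -0.22 for cycling CD8 at day 13 under 3 myeloid UMIs. Without T cell barcodes holding myeloid RNA it was 0.19 for day in CD8 T cells (all barcodes -0.07), -0.16 for both receptors at day 13 (0.09; Hspb1 with 1 UMI against 20), -0.25 for cycling CD8 at day 13 (-0.09), 0.14 and -0.17 for no Cd3 (0.04 and 0.05), -0.52 for Foxp3 at day 19 (-0.16) and -0.35 for cycling CD4 at day 19 (-0.01; -0.28 under 10 myeloid UMIs). Under 3 myeloid UMIs and not cycling it was 0.16 for day in CD8 and 0.094 in CD4 T cells (-0.28), -0.31 for both receptors at day 13, -0.12 for CD8 over CD4 at day 19 (0.07) and -0.38 for Foxp3 at day 19; under 3 and at least 8000 UMIs it was -0.22 and -0.052 for cycling CD8 (day 19 -0.12) and -0.39 for cycling CD4 at day 19. With the total without mitochondrial, ribosomal and receptor genes it was -0.023 and 0.22 for CD8 over CD4 (day 13 -0.14), -0.11 for both receptors at day 13, -0.21 and -0.25 for cycling CD8, and -0.14 and -0.13 for no Cd3. With TMM it was -0.0085 and 0.24, -0.079, and -0.17 and -0.22 for the same T cell comparisons. At most 20000 UMIs gave -0.23 and -0.23 for cycling CD8 and -0.35 for Foxp3 at day 19, thinning -0.23, -0.20 and -0.32 for these and 0.12 for no Cd3 at day 13, the mean of CPM per barcode 0.13 there, and at least 1000 UMIs -0.072 for no Cd3 at day 19.

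Single ratios past 1.5-fold turned as follows. Hspb1 was at 1.87, 0.98 and 1.94 for day in CD8 (under 3, under 10, and under 3 myeloid UMIs and not cycling), 0.16 for CD8 over CD4 at day 13 (under 3), -1.71, -2.27, -0.15, -4.30 and -1.51 for both receptors at day 13 (under 3, under 10, at most 20000 UMIs, with a contig, thinned), 0.018 and 0.0019 at day 19 (mean of CPM, thinned), 0.90 for Foxp3 at day 19 (not cycling) and -0.82 for cycling CD8 at day 19 (at most 20000 UMIs). Without the 1 barcode richest in the gene, an alternative chosen after seeing the data, Hspb1 turned to 0.0015 for both receptors at day 19 and to -0.38 for no Cd3 at day 19. In cycling CD4 T cells under 3 myeloid UMIs with at least 8000 UMIs, Hspd1 was at -0.27 at day 13 and Hspa1b at 0.29 at day 19. Leaving out 1 contig set at a time gave medians of -0.12 to -0.01 and -0.39 to -0.22 for day in CD8 and CD4, -0.15 to -0.12 and 0.04 to 0.09 for CD8 over CD4, -0.12 to -0.01 and -0.18 to -0.14 for Foxp3, 0.07 to 0.13 and -0.34 to -0.23 for both receptors, -0.11 to -0.08 and -0.15 to -0.11 for cycling CD8, -0.05 to -0.01 and -0.02 to -0.01 for cycling CD4, and 0.04 to 0.07 and 0.02 to 0.08 for no Cd3.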

Other observations

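Barcodes with Cd3 that fell in neither T cell class were left out of the comparisons. Those with UMIs of both coreceptors, 1180 at day 13 and 703 at day 19, held 176 and 174 CPM of Hspa1a and 251 and 199.7 of Dnajb1. Those with neither, 1057 and 499, held 249.9 and 243 CPM of Hspa1a and 261 and 243 of Dnajb1. For Hspa1a the barcodes without a coreceptor were close to or above CD4 T cells, and those with both lay between CD8 and CD4 T cells. Their median myeloid UMIs were 240 and 282 with both and 31 and 23 with neither.

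Among barcodes without Cd3, those with natural killer markers were few, 6 at day 13 and 13 at day 19. At day 19 they held 220.4 CPM of Hsph1 and 287 of Hspd1, on 30 and 39 UMIs, against 28.0 and 75.3 in monocyte barcodes. Barcodes with dendritic markers, 29 at day 13 and 7 at day 19, held 560.1 and 617 CPM of Hspa1a and 3680.0 and 4242 of Hspa8. These rest on 128 and 32 UMIs of Hspa1a and 841 and 220 of Hspa8. At day 19, 1 barcode held 34.4% of the Hspa1a UMIs and 1 held 35.9% of the Hspa8 UMIs.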
